A study of Mus musculus with 20 samples.

Results

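The 35 genes described here encode nucleolar proteins that make ribosomes. They were chosen by name from the known nucleolar steps of ribosome production, and each was read on the array probe with the highest mean signal of those assigned to its symbol. All 35 had a probe among the 26159 genes with one on the array, and all 35 were among the 18311 genes kept by the filter on dim genes. The islets came from male B6.V-Lep ob/ob mice, a strain without working leptin that becomes obese, and every group carried that genotype. Islet RNA of 20 mice was measured, 1 array per mouse and 5 mice in each of 4 groups. Young mice were taken at 18 weeks of the diet labelled HFD, or at 18 weeks of it followed by 2 days of the diet labelled CRD. Aged mice were taken at 39 weeks of HFD, or at 39 weeks followed by 2 days of CRD, and the labels give the same week numbers as the age of the mice and as the length of HFD feeding. The sources used here do not spell out HFD or CRD. Islets were picked by hand from collagenase-digested pancreas, so each sample is a mixture of islet cells and could hold exocrine tissue. The beta cell gene Ins2 read 17.82 or 17.94 log2 units on every array, 17.94 being the highest value the table holds, so the labelled tissue was present and a difference in Ins2 could not show.

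Ribosomes are built in the nucleolus, where RNA polymerase I copies the ribosomal RNA genes into one long precursor. Small nucleolar ribonucleoproteins (snoRNPs) of the box C/D and box H/ACA classes modify that precursor, and helicases and assembly factors fold it, cut it and join it to ribosomal proteins as the small and the large subunit. These genes are expressed in all nucleated cells and are known to be raised together in growing and dividing cells, where the factor MYC is one of their regulators.

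The promoters of these genes were read from the RefSeq promoter table for GRCm38.p6, which gives 250 bases before to 50 bases after each annotated start. The table held 32 promoters for 30 of the 35 genes, and none was used for Bop1, Fbl, Npm1, Rrp12 and Rrs1. They were searched on both strands for CACGTG (the E-box that MYC binds with its partner MAX), for CACGCG (a variant E-box) and for GGGCGG (the GC box of SP and KLF factors). No 6 bases can match more than 1 of the 3, though neighbouring matches may overlap. CACGTG was present in 6 of the 32 promoters (18.8%) and in 7.15% of the 32851 promoters of the table. CACGCG was present in 11 of 32 (34.4%) against 9.27% of all, and GGGCGG in 23 of 32 (71.9%) against 35.7%. The median GC content was 58.67% in the members' promoters and 52.67% in all promoters, and these shares were not adjusted for it. The 6 E-box promoters belonged to Mybbp1a, Nop2, Pes1, Tsr1, Utp20 and Wdr43. Of the 8 members that rose after CRD at either age with the set block (the array sets are described after the sequences), 6 had a promoter in the table, and 4 of those held CACGCG while 0 held CACGTG. Without the block 16 members rose at either age and 13 of them had a promoter, of which 6 held CACGCG and 3 (Nop2, Tsr1 and Utp20) held CACGTG.

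The sequences shown first are those of the 4 members that rose after CRD with the set block and carry CACGCG. Nop56 follows, which rose at both ages and holds neither E-box form. Ddx21 is last, which was lower in aged than in young mice on HFD with and without the block. Each sequence is written 5′ to 3′ on the strand of its gene, with the E-box variant in capitals as CACGCG or as its reverse complement CGCGTG. A match describes these letters and does not show that a factor binds there.
Bysl (chr17:47611443-47611742, minus strand): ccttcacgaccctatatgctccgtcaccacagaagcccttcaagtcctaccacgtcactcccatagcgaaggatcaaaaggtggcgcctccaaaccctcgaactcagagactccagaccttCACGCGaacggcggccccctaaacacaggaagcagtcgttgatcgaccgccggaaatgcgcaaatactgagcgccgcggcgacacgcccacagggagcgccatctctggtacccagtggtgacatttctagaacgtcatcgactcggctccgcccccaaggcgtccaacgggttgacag
Nop10 (chr2:112261676-112261975, plus strand): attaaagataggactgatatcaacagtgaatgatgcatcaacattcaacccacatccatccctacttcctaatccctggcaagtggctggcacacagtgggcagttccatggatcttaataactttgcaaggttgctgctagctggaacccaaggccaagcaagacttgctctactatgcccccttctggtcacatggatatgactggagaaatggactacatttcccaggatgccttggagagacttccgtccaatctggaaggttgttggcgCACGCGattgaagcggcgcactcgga
Nop16 (chr13:54590025-54590324, minus strand): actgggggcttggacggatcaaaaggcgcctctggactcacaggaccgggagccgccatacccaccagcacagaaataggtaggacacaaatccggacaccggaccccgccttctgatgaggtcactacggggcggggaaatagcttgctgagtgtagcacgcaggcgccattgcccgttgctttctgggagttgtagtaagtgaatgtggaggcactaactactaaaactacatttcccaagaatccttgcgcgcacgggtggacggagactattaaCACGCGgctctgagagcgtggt
Nhp2 (chr11:51619523-51619822, plus strand): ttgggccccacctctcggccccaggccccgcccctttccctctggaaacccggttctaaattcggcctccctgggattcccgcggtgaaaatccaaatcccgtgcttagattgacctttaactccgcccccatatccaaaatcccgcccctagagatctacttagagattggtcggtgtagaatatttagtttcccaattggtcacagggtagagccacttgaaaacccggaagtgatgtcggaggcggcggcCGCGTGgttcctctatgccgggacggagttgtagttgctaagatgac
Nop56 (chr2:130274162-130274461, plus strand): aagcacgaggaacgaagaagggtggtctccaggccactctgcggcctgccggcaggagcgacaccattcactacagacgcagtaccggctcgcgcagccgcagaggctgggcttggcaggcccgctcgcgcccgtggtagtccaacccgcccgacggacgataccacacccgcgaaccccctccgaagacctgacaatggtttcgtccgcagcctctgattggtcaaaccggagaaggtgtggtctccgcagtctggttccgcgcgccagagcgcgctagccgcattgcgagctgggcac
Ddx21 (chr10:62602249-62602548, minus strand): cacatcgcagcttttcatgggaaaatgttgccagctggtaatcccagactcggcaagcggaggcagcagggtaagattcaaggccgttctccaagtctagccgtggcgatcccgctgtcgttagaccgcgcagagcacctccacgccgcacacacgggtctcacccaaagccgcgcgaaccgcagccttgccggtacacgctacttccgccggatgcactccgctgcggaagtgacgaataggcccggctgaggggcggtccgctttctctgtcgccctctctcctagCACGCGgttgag
Counted with the start site as 0, the first base of the variant E-box lay at -129 in Bysl, at 24 in Nop10, at 28 in Nop16, at 3 in Nhp2 and at 38 in Ddx21. In 4 of these 5 promoters it began downstream of the annotated start. Ddx10, which fell after CRD at 18 weeks, also holds the variant, with its first base at -3.

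The arrays were divided into 3 sets, a number chosen for the clustering. No label records these sets, which were found in the data from 1315 chemosensory receptor genes. Set A held 4 of the young mice on HFD (all but replicate 2), replicate 2 of the young mice after CRD, aged HFD replicates 1, 2 and 3, and aged CRD replicates 1, 2, 4 and 5. Set B held young HFD replicate 2, young CRD replicates 1, 3, 4 and 5, and aged HFD replicate 5. Set C held aged HFD replicate 4 and aged CRD replicate 3. At 18 weeks the diet groups were thus spread unequally over sets A and B. Member counts are therefore given both without the sets and with the array set as a term of the fit (the set block). Some counts are also given within a set that had arrays of both groups. A gene's value is from the fit without the block unless the block or a set is named. Levels are log2 of the authors' quantile-normalized intensity, on which a difference of 1 is a factor of 2. Each difference comes from limma with its standard error (SE), with p-values adjusted over all 18311 genes and a threshold of 0.05. In bulk tissue, fewer cells of a type and less RNA per cell cannot be told apart.

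**Figure D1:**
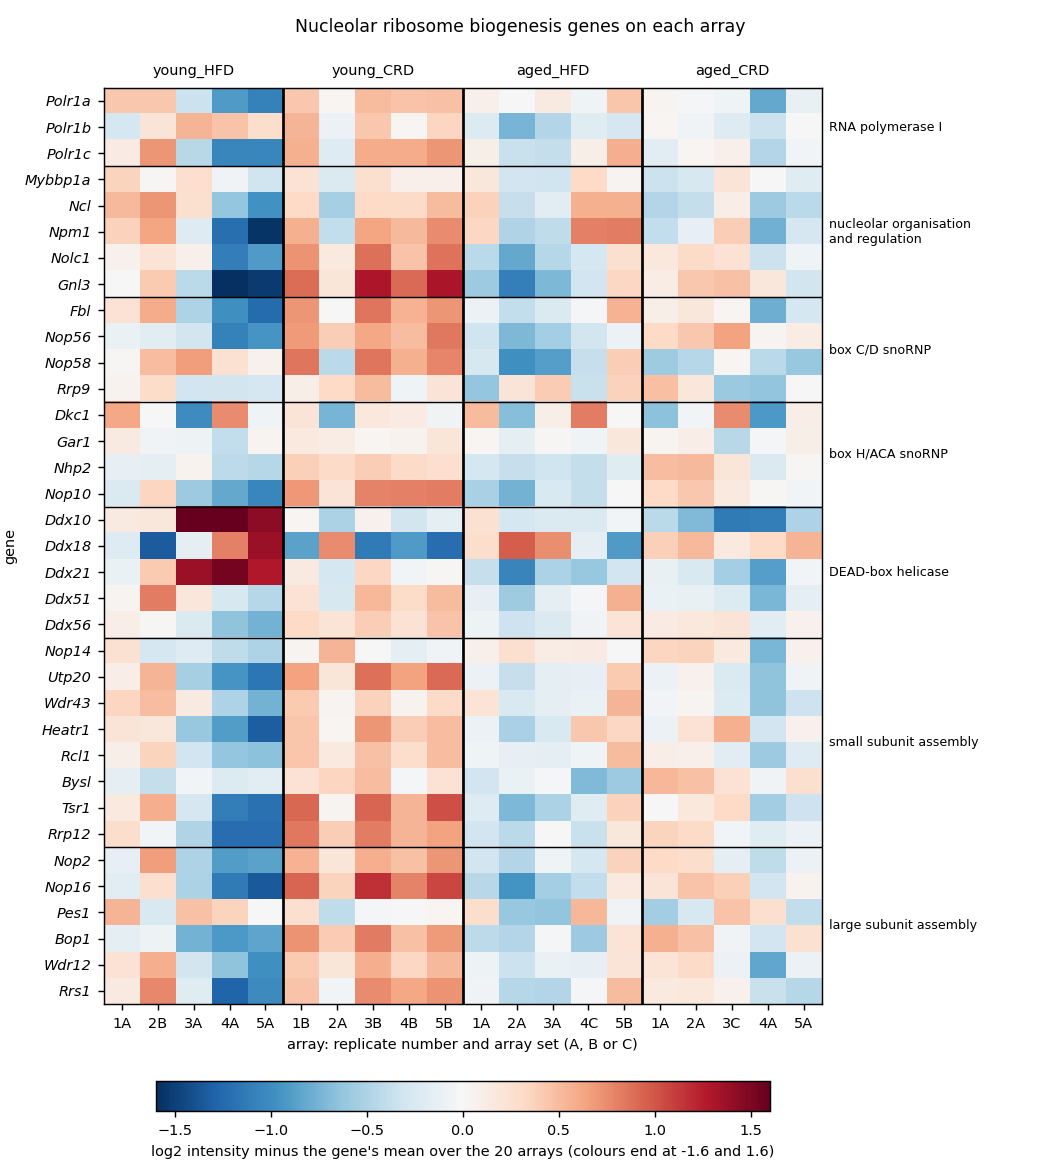
Log2 intensity of each of the 35 genes (rows, by role) on each of the 20 arrays (columns, by group, with the replicate number and array set), relative to that gene's mean over all arrays. Red cells fill most of the young CRD columns of set B, and young HFD replicates 4 and 5 are blue for most genes, with Ddx10, Ddx18 and Ddx21 among the exceptions.

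After 2 days of CRD at 18 weeks, 15 of the 35 genes rose and 2 fell, with rises of 0.55 to 1.55 log2 units. The genes that rose came from 6 of the 7 roles, among them the box C/D protein Nop56, the H/ACA protein Nop10, the large subunit factors Nop16 and Bop1 and the small subunit factor Rrp12. Ddx10 and Ddx21, both DEAD-box helicases, fell by 1.22 and 0.87. At 39 weeks 3 genes rose, Nop56, Nhp2 and Bysl, by 0.51 to 0.70, and 0 fell. None of the 35 passed the test for a difference between the diet effects at the 2 ages.

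Of all genes tested, 17.0% rose and 7.89% fell at 18 weeks, against 42.9% and 5.71% of the members. The members' median change was 0.62 and that of all genes 0.04, and 30 of the 35 members had a change above 0. With the set block, 6 members rose at 18 weeks (Bop1, Bysl, Nop10, Nop16, Nop56 and Rrp12) and Ddx10 fell, or 17.1% and 2.86% of the members. The background of that fit was 6.89% up and 5.97% down, and the members' median change was 0.30 against 0.01 for all genes. In that fit 25 of the 35 members had a change above 0. In set B alone, 1 array on HFD against 4 after CRD, Bop1, Nop16, Nop56 and Rrp12 passed. In set A alone, 4 arrays against 1 (a lone array is assumed to vary like the others), 0 members passed with limma, 8 had an unadjusted p under 0.05, and the median change was 0.53.

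Single arrays mattered to these counts. Without young HFD replicate 4 the count at 18 weeks was 8, and without young HFD replicate 5 it was 11. With the block it was 0 without young CRD replicate 2, which is the array of its group in set A, 4 without aged HFD replicate 5 and 12 without young HFD replicate 1. The ranges of 8 genes did not overlap between the diet groups at 18 weeks, 7 higher and 1 lower after CRD, or 22.9% of the members against 9.6% of all genes. At 39 weeks 2 members did not overlap, Nop56 higher and Ddx10 lower, where 12.7% of all genes did not overlap.

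At 39 weeks the background was 3.5% up and 4.84% down, and the members stood at 8.57% up with a median change of 0.01 against 0.02 for all genes. With the set block, 6 members rose (Bysl, Gnl3, Nhp2, Nop10, Nop16 and Nop56) and 0 fell, with 9 at an unadjusted p under 0.05. The background of that fit was 7.49% up and 7.79% down, and the members' median was 0.10 against 0.01. Without the block the 39-week count was 0 when aged HFD replicate 4, aged CRD replicate 1 or aged CRD replicate 2 was left out, and 1 without aged HFD replicate 1, 2, 3 or 5 or aged CRD replicate 3. With the block it was 3 without aged HFD replicate 2 and 2 without either array of set C. In set A alone 0 members passed with limma and 6 had an unadjusted p under 0.05. The groups compared at the 2 ages hold different mice, but both comparisons come from 1 fit to all 20 arrays and share its estimate of the spread and, with the block, its set terms.

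**Figure D2:**
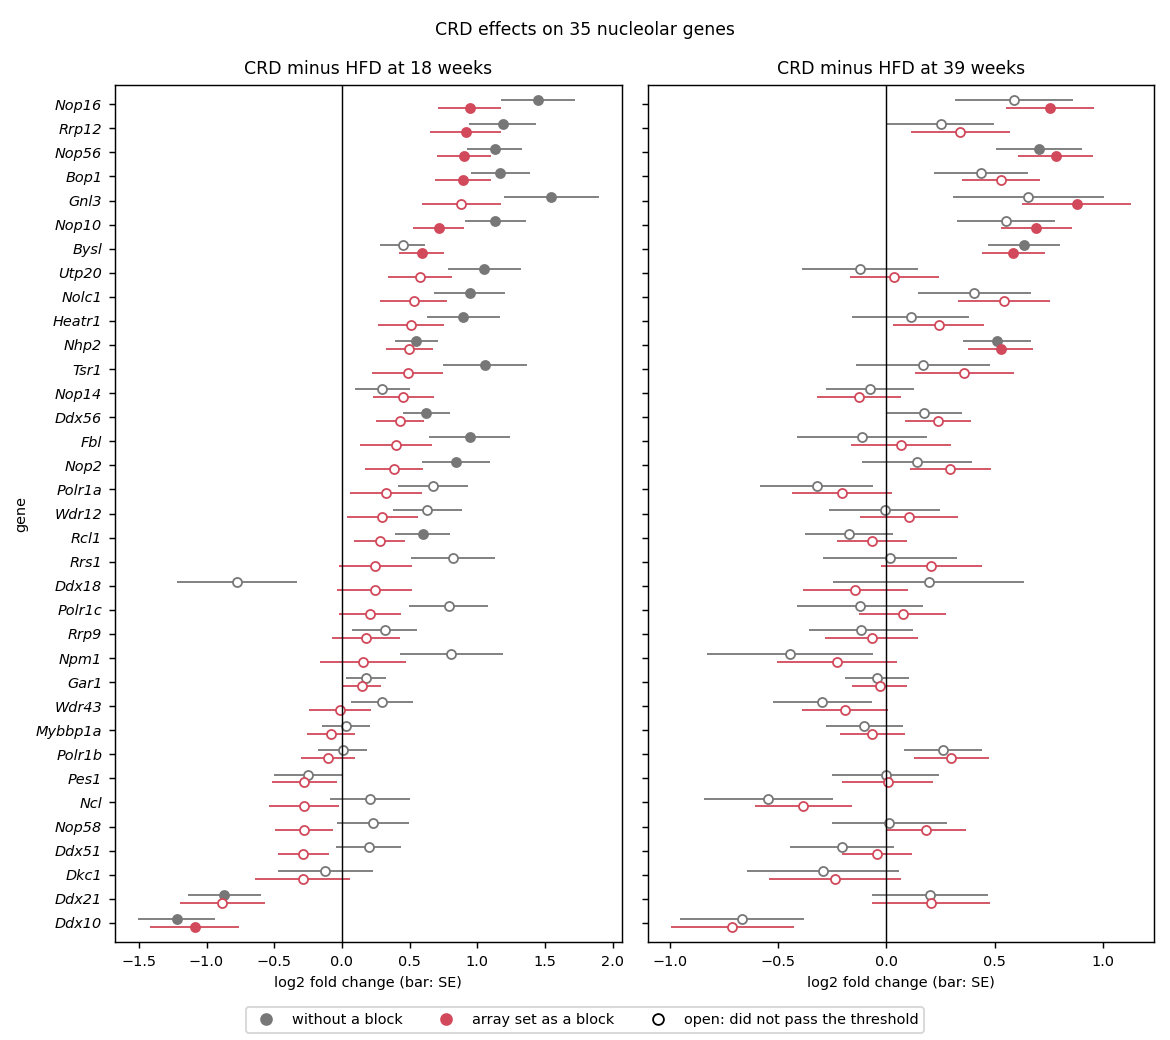
Log2 fold change of each of the 35 genes after CRD (bars, SE) at 18 weeks (left) and 39 weeks (right), in the fit without a block (grey) and with the set block (red), ordered by the blocked value at 18 weeks. Filled points passed the threshold of 0.05: at 18 weeks 15 up and 2 down without the block and 6 up and 1 down with it, and at 39 weeks 3 up and 6 up.

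RNA polymerase I was represented by Polr1a, its largest catalytic subunit, by Polr1b, the second-largest, and by Polr1c, a subunit shared with RNA polymerase III. None of the 3 passed in a diet comparison in either fit. At 18 weeks Polr1a differed by 0.67 ± 0.26 (adjusted p = 0.063) and Polr1c by 0.79 ± 0.29 (adjusted p = 0.0524), and with the set block by 0.33 and 0.20. Polr1b was near the filter limit of 4.83. In young mice it read 5.14 ± 0.32 (SD) on HFD and 5.15 ± 0.27 (SD) after CRD, and differed by 0.01. In aged mice its means were below that limit, at 4.52 ± 0.23 (SD) on HFD and 4.78 ± 0.15 (SD) after CRD. At 39 weeks the 3 differences were -0.32, 0.26 and -0.12.

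Among the 5 genes of nucleolar organisation and regulation, Gnl3 and Nolc1 rose at 18 weeks and the others did not pass. Nucleolin (Ncl), an abundant RNA-binding protein of the nucleolus, read 12.21, 12.41, 11.95, 11.08 and 10.73 on replicates 1 to 5 of the young mice on HFD and 12.01, 11.17, 12.01, 12.01 and 12.21 after CRD. In the aged mice it read 12.07, 11.33, 11.52, 12.26 and 12.27 on HFD and 11.23, 11.32, 11.80, 11.11 and 11.27 after CRD. The groups overlapped at both ages, and the lowest HFD arrays of the young mice were replicates 4 and 5. Ncl differed by 0.21 ± 0.30 (adjusted p = 0.605) at 18 weeks and by -0.55 ± 0.30 (adjusted p = 0.319) at 39 weeks. With the block the differences were -0.28 and -0.38, so the 18-week value changed sign.

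Nucleophosmin (Npm1), a histone chaperone that fills the granular part of the nucleolus, was read on 3 probes. On its brightest probe the young mice on HFD read 11.88, 12.14, 11.30, 10.30 and 9.94, and those after CRD 12.08, 11.11, 12.13, 12.02 and 12.26. Aged mice read 11.84, 11.02, 11.11, 12.31 and 12.32 on HFD and 11.12, 11.38, 11.90, 10.74 and 11.24 after CRD. Within HFD the young mice spanned more than 2 log2 units, and young CRD replicate 2 stood below the other arrays of its group. The difference was 0.81 ± 0.38 (adjusted p = 0.119) at 18 weeks and -0.45 ± 0.38 (adjusted p = 0.587) at 39 weeks. With the block it was 0.16 and -0.23. The other probes gave other values. The probe with the lowest adjusted p rose at both ages, by 1.89 ± 0.27 (SE; adjusted p = 6.62e-05) at 18 weeks and 1.14 ± 0.27 (adjusted p = 0.0103) at 39 weeks, and by 1.37 and 1.31 with the set block. The remaining probe rose at 18 weeks by 1.26 ± 0.44 (adjusted p = 0.0401), differed by -0.37 at 39 weeks, and passed at neither age with the block. Which transcripts each probe detects was not examined, so Npm1 is reported as uncertain.

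Gnl3 (nucleostemin), a nucleolar GTPase of large subunit maturation found in proliferating cells, had the largest rise of the 35 at 18 weeks without the block. Its level ranged from 7.17 to 9.18 in young mice on HFD and from 8.95 to 10.07 after CRD, which overlapped. It rose by 1.55 ± 0.35 (adjusted p = 0.00354) without the block and differed by 0.88 ± 0.29 (adjusted p = 0.052) with it. In aged mice it differed by 0.66 ± 0.35 (adjusted p = 0.307) without the block and rose by 0.88 ± 0.25 (adjusted p = 0.0223) with it. Nolc1, a chaperone of snoRNPs, rose at 18 weeks by 0.94 ± 0.26 (adjusted p = 0.0133), which did not pass with the block (0.53). Mybbp1a, a nucleolar protein that binds MYB and regulates RNA polymerase I, differed by 0.03 at 18 weeks and -0.10 at 39 weeks. With the block it differed by -0.08 and -0.06.

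The box C/D snoRNP guides methylation of ribosomal RNA, and of its 4 proteins Nop56 and Fbl rose at 18 weeks and Nop56 rose at 39 weeks. Nop56, one of the paired core proteins, read 8.83, 8.76, 8.64, 7.86 and 7.99 in the young mice on HFD and 9.62, 9.34, 9.55, 9.43 and 9.79 after CRD. In the aged mice it read 8.62, 8.22, 8.40, 8.64 and 8.84 on HFD and 9.25, 9.37, 9.58, 8.99 and 9.05 after CRD. Every array after CRD was above every array on HFD at both ages, including arrays of the same set. Nop56 rose by 1.13 ± 0.20 (adjusted p = 0.00049) at 18 weeks and by 0.70 ± 0.20 (adjusted p = 0.032) at 39 weeks. In the fit with the set block they were 0.90 ± 0.20 (adjusted p = 0.00457) and 0.78 ± 0.17 (adjusted p = 0.00397). Its 18-week rise passed without any 1 array, while at 39 weeks it did not pass without aged HFD replicate 1, 2, 3 or 4 or aged CRD replicate 1, 2 or 3, where it was 0.62 to 0.73.

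Fibrillarin (Fbl), the methyltransferase of the same particle, read 10.16, 10.52, 9.44, 8.95 and 8.70 in young mice on HFD and 10.64, 9.94, 10.79, 10.48 and 10.64 after CRD. Aged mice read 9.83, 9.54, 9.70, 9.89 and 10.49 on HFD and 10.02, 10.12, 9.96, 9.14 and 9.64 after CRD. Young HFD replicate 2, the array of set B, lay among the CRD arrays of that set, and the groups overlapped at both ages. Fbl rose by 0.94 ± 0.30 (adjusted p = 0.0284) at 18 weeks, which missed the threshold with the block (0.40 ± 0.27, adjusted p = 0.414) and without any 1 of young HFD replicates 3, 4 and 5 or of the 4 young CRD arrays of set B. At 39 weeks it differed by -0.11 ± 0.30 (adjusted p = 0.878). Nop58, the partner of Nop56, differed by 0.23 ± 0.27 (adjusted p = 0.515) at 18 weeks and 0.01 at 39 weeks. With the block Nop58 differed by -0.28 and 0.18. The paired core proteins were thus on different sides of the threshold. That contrast between the 2 genes was not tested. Rrp9, which marks the U3 particle, differed by 0.32 and -0.11 and did not pass.

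In the box H/ACA snoRNP, which turns uridines of ribosomal RNA into pseudouridine, the 2 small proteins Nhp2 and Nop10 rose, and the synthase Dkc1 and its partner Gar1 did not pass at either age. Nop10 read 9.33, 9.90, 8.98, 8.74 and 8.51 in the young mice on HFD and 10.25, 9.77, 10.36, 10.36 and 10.38 after CRD. Its levels in aged mice were 9.05, 8.81, 9.32, 9.18 and 9.57 on HFD and 9.88, 9.99, 9.72, 9.58 and 9.51 after CRD. At each age 1 HFD array reached into the CRD range, young HFD replicate 2 and aged HFD replicate 5, both of set B. The rise was 1.13 ± 0.22 (adjusted p = 0.00132) at 18 weeks and, with the block, 0.72 ± 0.19 (adjusted p = 0.0146). The difference at 39 weeks was 0.55 ± 0.22 (adjusted p = 0.152) without the block and a rise of 0.69 ± 0.16 (adjusted p = 0.00631) with it.

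Nhp2 read 8.80, 8.80, 9.0, 8.52 and 8.48 in the young mice on HFD and 9.32, 9.25, 9.32, 9.24 and 9.20 after CRD. Aged mice read 8.65, 8.56, 8.61, 8.56 and 8.74 on HFD and 9.43, 9.45, 9.13, 8.70 and 8.95 after CRD. The young groups did not overlap, and among the aged mice CRD replicate 4 fell below HFD replicate 5. The rise was 0.55 ± 0.16 (adjusted p = 0.0166) at 18 weeks and 0.51 ± 0.16 (adjusted p = 0.0494) at 39 weeks. Across 30 alternative fits, the 39-week rise of Nhp2 passed in 11 and kept its direction but missed the threshold in 19. With the block, Nhp2 differed by 0.50 ± 0.17 (adjusted p = 0.067) at 18 weeks, which missed the threshold, and rose by 0.53 ± 0.15 (adjusted p = 0.0217) at 39 weeks. Dkc1, the synthase itself, differed by -0.12 ± 0.35 (adjusted p = 0.805) at 18 weeks and by -0.29 ± 0.35 (adjusted p = 0.71) at 39 weeks, and Gar1 by 0.18 and -0.04.

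**Figure D3:**
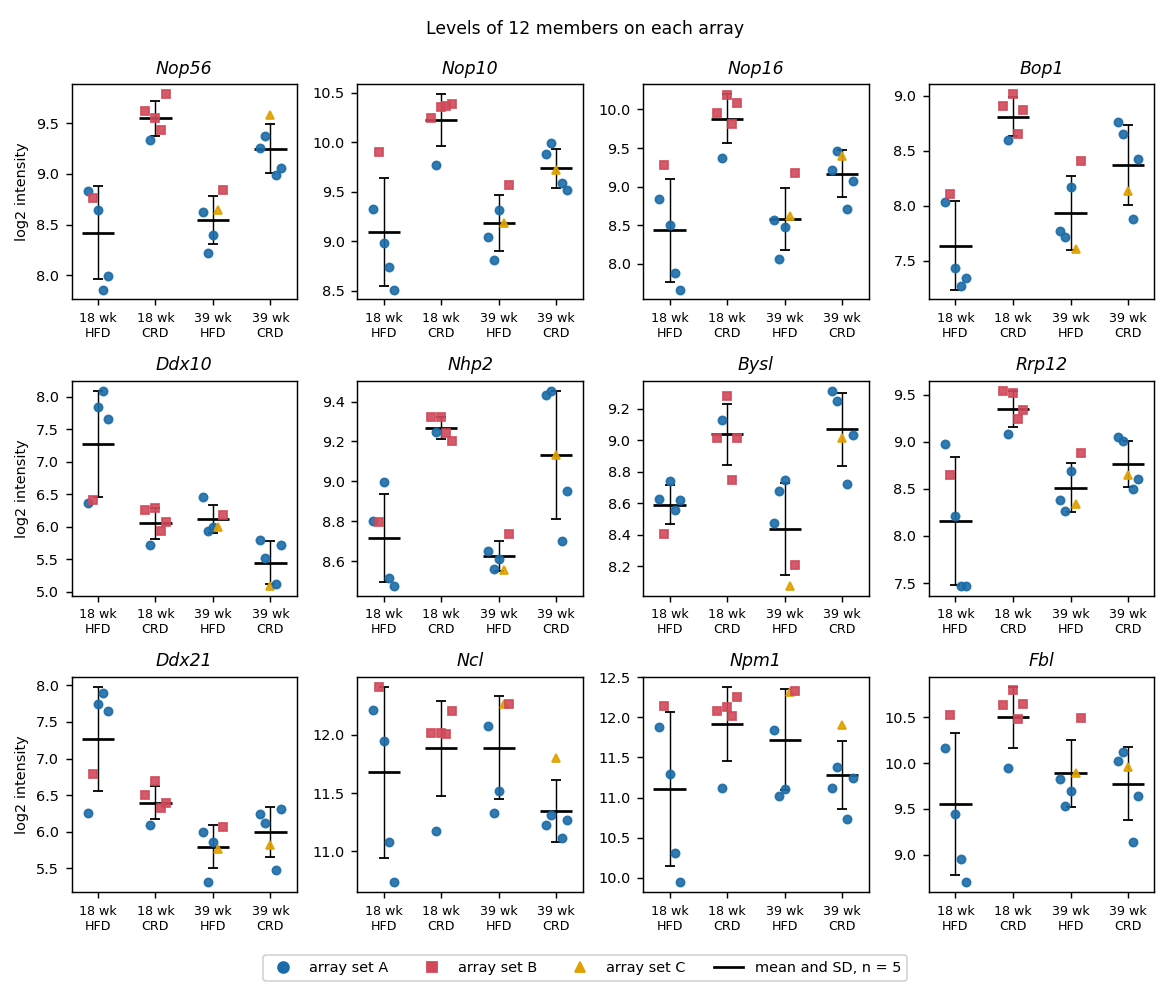
Log2 intensity of 12 of the genes on each of the 20 arrays, by group, with the colour and shape of each point giving its array set and black bars giving the mean and SD of 5 arrays. Nop56 (higher after CRD) and Ddx10 (lower after CRD) have no overlap between diets at either age. Ddx10 and Ddx21 are raised on 3 of the 5 arrays of young mice on HFD, which read 7.65 or more.

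The 5 DEAD-box helicases did not move as a group. Ddx56, which acts in large subunit assembly, rose at 18 weeks by 0.62 ± 0.17 (adjusted p = 0.0142), with no overlap between the diets, and did not pass with the block (0.43). Ddx10, the counterpart of a yeast helicase of early precursor cutting, read 6.37, 6.41, 7.84, 8.09 and 7.66 in the young mice on HFD and 6.25, 5.72, 6.29, 5.93 and 6.08 after CRD. Aged mice read 6.46, 5.94, 6.0, 6.0 and 6.18 on HFD and 5.79, 5.52, 5.09, 5.11 and 5.73 after CRD. Young HFD replicates 3, 4 and 5, all of set A, stood more than 1 log2 unit above replicates 1 and 2, and replicates 1 and 2 were close to the highest CRD array. Even so, every array after CRD was below every array on HFD at both ages. Ddx10 fell by 1.22 ± 0.29 (adjusted p = 0.00473) at 18 weeks and by 1.09 ± 0.33 (adjusted p = 0.0315) with the block. Within set B, where the 1 HFD array is replicate 2, the difference was -0.27. The 39-week difference was -0.67 ± 0.29 (adjusted p = 0.181) without the block and -0.71 ± 0.28 (adjusted p = 0.102) with it.

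Ddx21, a helicase that acts on both RNA polymerase I transcription and snoRNAs, showed the same 3 high arrays. It read 6.26, 6.78, 7.75, 7.90 and 7.65 in young mice on HFD and 6.51, 6.09, 6.69, 6.32 and 6.39 after CRD. In aged mice it read 5.99, 5.31, 5.86, 5.76 and 6.06 on HFD and 6.25, 6.12, 5.82, 5.48 and 6.32 after CRD. Of the young HFD arrays, replicate 1 lay within the range of the CRD arrays and below 4 of the 5 of them, and the other 4 lay above all of them. Ddx21 fell by 0.87 ± 0.27 (adjusted p = 0.0243) at 18 weeks, which was lost with the block (-0.88 ± 0.31, adjusted p = 0.0724) and without any 1 of young HFD replicates 3, 4 and 5 or young CRD replicates 4 and 5. At 39 weeks it differed by 0.20 ± 0.27 (adjusted p = 0.745).

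Ddx18, the counterpart of a yeast large subunit helicase, read 11.45, 10.32, 11.51, 12.47 and 13.04 in young mice on HFD and 10.79, 12.41, 10.52, 10.75 and 10.44 after CRD. The highest young arrays, HFD replicates 4 and 5 and CRD replicate 2, are all of set A and are those on which most other members were low for their group. The difference was -0.78 ± 0.44 (adjusted p = 0.189) without the block and 0.24 ± 0.28 (adjusted p = 0.706) with it, and so changed sign between the fits. Ddx51, also a large subunit helicase, differed by 0.20 at 18 weeks and -0.20 at 39 weeks and did not pass. With the block it differed by -0.28 and -0.04.

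Of the 8 small subunit factors, 5 rose at 18 weeks (Rrp12, Tsr1, Utp20, Heatr1 and Rcl1), and 1 at 39 weeks (Bysl). Rrp12, which helps the small subunit precursor leave the nucleus, read 8.98, 8.65, 8.21, 7.47 and 7.47 in the young mice on HFD and 9.54, 9.09, 9.51, 9.24 and 9.34 after CRD. Aged mice read 8.38, 8.27, 8.69, 8.34 and 8.88 on HFD and 9.05, 9.0, 8.65, 8.50 and 8.61 after CRD. All 5 young arrays after CRD were above all 5 on HFD, the nearest pair being HFD replicate 1 and CRD replicate 2, both of set A, and the aged groups overlapped. Rrp12 rose by 1.19 ± 0.25 (adjusted p = 0.00195) at 18 weeks and by 0.92 ± 0.26 (adjusted p = 0.0244) with the block. In aged mice it differed by 0.25 ± 0.25 (adjusted p = 0.648) and, with the block, by 0.34.

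Bystin (Bysl), a factor of the small subunit precursor, read 8.63, 8.40, 8.74, 8.56 and 8.62 in the young mice on HFD and 9.01, 9.13, 9.28, 8.75 and 9.01 after CRD. Its levels in aged mice were 8.48, 8.67, 8.75, 8.07 and 8.21 on HFD and 9.32, 9.25, 9.02, 8.72 and 9.04 after CRD. The young groups were apart by a small gap, between HFD replicate 3 and CRD replicate 4, and the aged groups overlapped only in HFD replicate 3 and CRD replicate 4. At 18 weeks it differed by 0.45 ± 0.17 (adjusted p = 0.0533) without the block, just outside the threshold, and rose by 0.59 ± 0.17 (adjusted p = 0.0228) with it. At 39 weeks it rose by 0.63 ± 0.17 (adjusted p = 0.020) without the block and by 0.59 ± 0.15 (adjusted p = 0.00866) with it. Bysl also had the lowest SD of the 35 genes in the young mice on HFD, 0.12.

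The other 4 risers of the small subunit did not pass with the set block. Tsr1, which binds the late precursor, rose by 1.06 ± 0.31 (adjusted p = 0.0184) at 18 weeks and stood at 0.49 with the block. Utp20 and Heatr1, large scaffold proteins of the small subunit processome, rose by 1.05 ± 0.27 (adjusted p = 0.00813) and 0.90 ± 0.27 (adjusted p = 0.0214), and stood at 0.58 and 0.51 with the block. Rcl1, which in yeast takes part in cutting the precursor, rose by 0.60 ± 0.20 (adjusted p = 0.0377) and stood at 0.28. Nop14 and Wdr43, further processome proteins, differed by 0.30 and 0.29 and did not pass. With the block they stood at 0.45 and -0.01. At 39 weeks the 7 factors other than Bysl differed by -0.29 (Wdr43) to 0.25 (Rrp12).

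Of the 6 large subunit factors, Nop16, Bop1 and Nop2 rose at 18 weeks and 0 passed at 39 weeks without the block. Nop16, a component of early large subunit precursors, read 8.83, 9.28, 8.51, 7.88 and 7.67 in the young mice on HFD and 9.95, 9.37, 10.18, 9.81 and 10.08 after CRD. Aged mice read 8.57, 8.06, 8.47, 8.62 and 9.17 on HFD and 9.22, 9.47, 9.39, 8.70 and 9.07 after CRD. The young groups did not overlap, although HFD replicate 2 came within 0.1 of the lowest CRD array, and the aged groups overlapped. Nop16 rose by 1.45 ± 0.27 (adjusted p = 0.000847) at 18 weeks and by 0.95 ± 0.23 (adjusted p = 0.010) with the block. At 39 weeks it differed by 0.59 ± 0.27 (adjusted p = 0.222) and rose by 0.76 ± 0.20 (adjusted p = 0.0148) with the block.

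Bop1 forms the PeBoW complex of large subunit maturation with Pes1 and Wdr12. It read 8.04, 8.11, 7.43, 7.27 and 7.34 in the young mice on HFD and 8.91, 8.60, 9.02, 8.66 and 8.87 after CRD. Aged mice read 7.77, 7.72, 8.17, 7.61 and 8.41 on HFD and 8.76, 8.65, 8.14, 7.88 and 8.43 after CRD. All young CRD arrays were above all young HFD arrays, and the aged groups overlapped. Bop1 rose by 1.17 ± 0.22 (adjusted p = 0.000697) at 18 weeks and by 0.90 ± 0.21 (adjusted p = 0.00607) with the block. In aged mice it differed by 0.44 ± 0.22 (adjusted p = 0.262) and by 0.53 ± 0.18 (adjusted p = 0.0534) with the block. Its 2 partners did not pass at 18 weeks. Wdr12 differed by 0.63 ± 0.25 (adjusted p = 0.0725) and Pes1 by -0.25 ± 0.25 (adjusted p = 0.448). With the block they stood at 0.30 and -0.28. Whether Bop1 differed from its partners in response was not tested.

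Nop2, an RNA methyltransferase of the large subunit, rose at 18 weeks by 0.84 ± 0.25 (adjusted p = 0.0208). It stood at 0.39 with the block and changed sign in set B alone, where it was -0.09. Rrs1, which helps to build the particle that carries the smallest ribosomal RNA, ranged from 6.01 to 8.07 in young mice on HFD and from 7.26 to 8.06 after CRD. It differed by 0.82 ± 0.31 (adjusted p = 0.0577), and by 0.25 with the block.

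Between the ages on HFD, 1 member passed. Ddx21, the helicase with the 3 high arrays described above, was lower at 39 than at 18 weeks by a log2 difference of -1.47 ± 0.27 (adjusted p = 0.0331), and its aged arrays, at most 6.06, did not overlap the young ones, at least 6.26. No other member passed, 0 rose, 4 had an unadjusted p under 0.05, and the median difference was 0.13 against 0.04 for all genes. In this comparison 0.071% of all genes rose and 0.0218% fell, and the groups did not overlap for 1.05%. With the set block, Ddx21 (-1.45 ± 0.28, adjusted p = 0.024) and Nop58 (-0.80 ± 0.19, adjusted p = 0.0428) were lower, where the background was 0.164% up and 0.748% down. Nop58 without the block differed by -0.72 ± 0.27 (adjusted p = 0.452). Without replicate 3, 4 or 5 of the young mice on HFD, the 3 high arrays, the Ddx21 difference was -1.31 to -1.38 and did not pass. It also did not pass in 10 of the other 17 fits that left out 1 array, and it passed without young HFD replicate 1, with 3 members called, and replicate 2, with 2 called. The count of 2 with the set block was 4 without young HFD replicate 1, 0 without young HFD replicate 3 or 4 or aged HFD replicate 2, 3 or 5, and 1 or 2 without any other array.

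After CRD, 33 of the 35 members had a lower mean at 39 than at 18 weeks, with a median difference of -0.51 against -0.18 for all genes, and 0 passed. With limma 15 members had an unadjusted p under 0.05 and 0.0% of all genes rose and 0.0273% fell. The groups did not overlap for 4 members, all lower in the aged mice, or 11.4% of them against 4.57% of all genes. The smallest adjusted p belonged to Nop58, at -0.93 ± 0.27 (adjusted p = 0.10), and to Utp20, at -0.84 ± 0.27 (adjusted p = 0.10). These 2 groups sat in different array sets, 4 of 5 young arrays in set B and 4 of 5 aged arrays in set A. The set block gave a median of -0.07, 0 members with an unadjusted p under 0.05, and a background of 0.0% up and 0.0% down. The array set and the age could therefore not be fully told apart here. Without young CRD replicate 2, 9 members passed in the fit without the block.

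The difference between the diet effects at 39 and 18 weeks, tested as an interaction, was below 0 for 29 of the 35 members without the block. Its median was -0.58 against -0.16 for all genes, and when each array was centred on its median the all-gene value moved to -0.05 and the members' to -0.48. With limma 0 members passed and 10 had an unadjusted p under 0.05, and 0.0% of all genes passed in either direction in either fit. The smallest adjusted p, 0.222, was shared by 12 members, and the interaction was below 0 for 11 of them and above 0 for Ddx21. Among the 11 were Npm1 (-1.25, and -0.38 with the block), Fbl (-1.06 and -0.33) and Polr1a (-1.0 and -0.53). Ddx21 stood at 1.07, and at 1.09 with the block. The value of Npm1 is that of its brightest probe, and its probes disagreed. With the set block the members' median was -0.13 and 1 had an unadjusted p under 0.05. A smaller diet effect in aged mice was therefore not shown for any member. Without young HFD replicate 2, 12 members passed in the fit without the block.

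**Figure D4:**
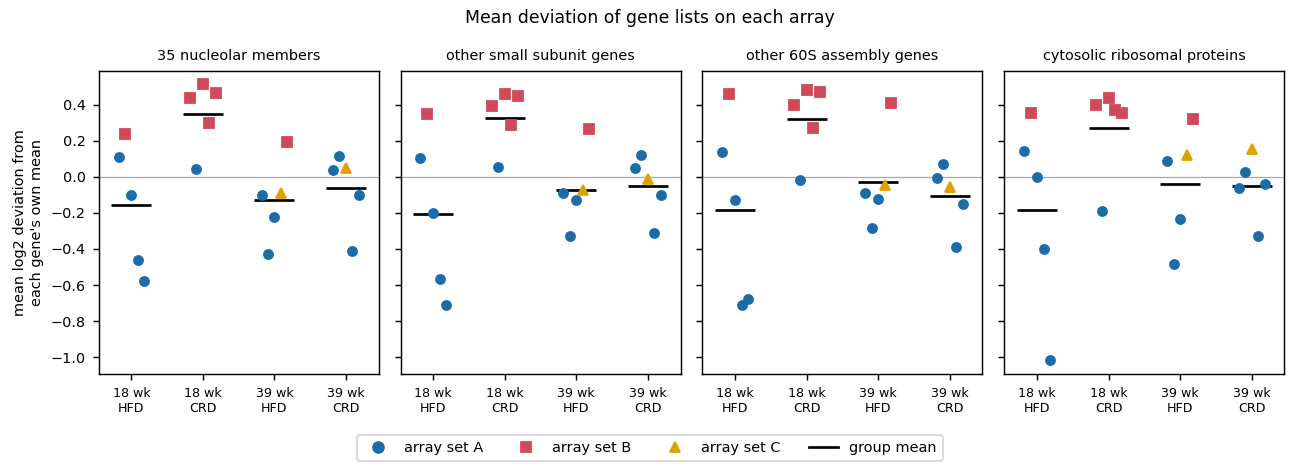
Mean log2 deviation from each gene's own mean over the 20 arrays, for the 35 genes and for 3 related lists, 1 point per array by group, with black lines at the group means. For the 35 genes the young CRD arrays run from 0.04 (replicate 2, set A) to 0.51, and young HFD replicates 4 and 5 are the lowest at -0.46 and -0.58.

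Most members were high or low on the same arrays. The mean deviation of the 35 genes from their own means ranged from -0.58 to 0.23 in the young mice on HFD, from 0.04 to 0.51 after CRD, from -0.43 to 0.19 in the aged mice on HFD and from -0.41 to 0.12 after CRD. On young CRD replicate 1, 34 of the 35 genes were above their own mean, and on aged HFD replicate 2 only 3 were. In the young mice on HFD the array of set B had 25 genes above their mean and replicates 4 and 5 of set A had 7 and 6.

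Related lists of ribosome production, which hold none of the 35 genes, were counted in the same fits. At 18 weeks, of 36 further genes of the small subunit processome and maturation, 14 rose and 1 fell (median 0.60), and of 33 further large subunit genes tested 10 rose and 0 fell (median 0.55). In the small subunit list the processome proteins Fcf1 and Pno1 rose by 1.17 ± 0.24 (adjusted p = 0.00167) and 1.03 ± 0.27 (adjusted p = 0.00938), and the helicase Ddx49 by 1.05 ± 0.21 (adjusted p = 0.00119). In the large subunit list Nip7 rose by 1.27 ± 0.33 (adjusted p = 0.00964). With the set block 3 rose and 0 fell in the first list, with Fcf1 at 0.69 and Ddx49 at 0.90 among them, and 3 rose and 1 fell in the second. Pno1 (0.57 ± 0.24, adjusted p = 0.145) and Nip7 (0.59 ± 0.26, adjusted p = 0.164) no longer passed with the block. At 39 weeks 1 rose and 1 fell in the first list and 1 rose in the second, and with the block 4 rose in each. The gene that fell was Utp6, with a difference of -0.81 ± 0.23 (adjusted p = 0.0354). It was also lower with the block (-0.89 ± 0.21, adjusted p = 0.00552). The backgrounds are those given for the members.

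Further RNA polymerase I machinery showed 7 genes up and 2 down of 15 tested at 18 weeks, and 0 up and 1 down with the block. The subunit gene Polr1e rose by 1.38 ± 0.34 (adjusted p = 0.00644), which was lost with the block (0.70 ± 0.27, adjusted p = 0.101). At 39 weeks 0 passed without the block (limma, 4 at an unadjusted p under 0.05), and 4 rose and 1 fell with it. In the nuclear exosome, which trims ribosomal RNA precursors, 7 of 12 rose and 0 fell at 18 weeks without the block. Its nuclease Dis3 rose by 1.54 ± 0.31 (adjusted p = 0.00132) and 1.02 with the block, and its core protein Exosc4 by 1.08 ± 0.21 (adjusted p = 0.00108) and 0.83 with the block. Exosc8 rose by 1.03 ± 0.24 (adjusted p = 0.00457), which was lost with the block (0.58 ± 0.20, adjusted p = 0.0653). Exosc4 also rose at 39 weeks, by 0.92 ± 0.21 (adjusted p = 0.00719), and by 1.00 with the block. Of 10 snoRNP assembly factors, Tgs1, which makes the cap of small nucleolar RNAs, rose by 0.90 ± 0.33 (adjusted p = 0.0495) at 18 weeks, which was lost with the block (0.30 ± 0.29, adjusted p = 0.627). Naf1, an assembly factor of the H/ACA particle, fell by 0.79 ± 0.18 (adjusted p = 0.00311) and differed by -0.87 ± 0.19, adjusted p = 0.00495 with the block.

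Of 28 cytosolic ribosomal protein genes tested, 8 rose and 0 fell at 18 weeks (median 0.46), among them Rplp0 by 1.22 ± 0.23 (adjusted p = 0.000991). With the block 1 rose, Rplp0, by 0.85, and the median was 0.02. At 39 weeks 1 rose without the block, Rplp1, by 0.67 ± 0.17 (adjusted p = 0.0144). Ribosomal protein genes have many near-identical pseudogenes whose transcripts a probe can also bind, so their values are uncertain.

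In the MYC network 2 of 10 genes tested rose and 1 fell at 18 weeks. That is near the background of 17.0% up and 7.89% down among all genes tested. Myc itself read 6.90, 7.62, 7.37, 7.12 and 6.91 in young mice on HFD and 7.29, 7.26, 7.65, 7.33 and 7.63 after CRD. The groups overlapped, and Myc differed by 0.25 ± 0.23 (adjusted p = 0.42) at 18 weeks and 0.02 ± 0.23 (adjusted p = 0.974) at 39 weeks. With the block Myc differed by 0.004 and 0.10. Mnt, another protein of the network, fell by 0.98 ± 0.24 (adjusted p = 0.00549) at 18 weeks and 1.58 ± 0.24 (adjusted p = 0.000151) at 39 weeks. With the block the differences of Mnt were -1.18 and -1.52. Mlx and Mxd4, further proteins of the network, rose at 18 weeks by 1.11 ± 0.24 (adjusted p = 0.00291) and 0.77 ± 0.19 (adjusted p = 0.00718). With the block Mlx passed at a smaller value (0.63 ± 0.19, adjusted p = 0.0359) and Mxd4 did not pass (0.44 ± 0.15, adjusted p = 0.0536). Mxd4 also rose at 39 weeks, by 0.72 ± 0.19 (adjusted p = 0.0224), and stood at 0.82 ± 0.13, adjusted p = 0.00014 with the block.

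Other features of the islets moved with the same comparisons. Mki67, a marker of dividing cells, rose by 3.87 ± 0.38 (adjusted p = 6.38e-07) at 18 weeks and by 3.57 ± 0.38 (adjusted p = 2.96e-06) at 39 weeks. The 10 CRD arrays, at 8.62 or more, all lay above the 10 HFD arrays, at 6.70 or less. Of 14 acinar cell genes tested of the 20 listed, 10 rose and 0 fell at 18 weeks (median 2.42), and 1 rose with the block. At 39 weeks 1 rose and 2 fell (median -2.22). Their mean level ran from 5.94 to 10.36 in the young mice on HFD, 8.19 to 10.76 after CRD, 10.28 to 11.20 in the aged mice on HFD and 8.21 to 10.50 after CRD. The 3 young HFD arrays with high Ddx10 and Ddx21 had the 3 lowest of these 20 acinar means, and the 2 arrays on which the members were lowest on average were among them. From 18 to 39 weeks on HFD, where Ddx21 passed, 8 of the 14 acinar genes rose and 0 fell, and 11 rose with the block. Of 8 beta cell genes, 6 fell and 0 rose at 18 weeks and 3 fell at 39 weeks, with mean levels of 12.46 to 13.05 and 11.54 to 12.04 in the young groups and 12.20 to 12.71 and 11.58 to 11.95 in the aged groups. Of 8 stellate cell and fibroblast genes 5 were tested, of which 1 rose at 18 weeks and 1 fell at 39 weeks, and with the block 0 rose and 2 fell, respectively. Their mean level ran from 6.94 to 8.17 in the young mice on HFD, 7.40 to 8.29 after CRD, 6.83 to 7.54 in the aged mice on HFD and 6.20 to 7.37 after CRD. After CRD the aged arrays therefore all lay below the young ones, in the comparison in which 33 members had a lower mean, and 0 of the 5 genes passed there (limma, 5 at an unadjusted p under 0.05, and 3 with the block). The part of cell makeup and of cell division in the members' changes was not tested.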

How the data were processed

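Total islet RNA of 20 mice was hybridised in 1 colour (Cy3), 1 array per mouse. The authors deposited 1 table of linear intensity for 59448 probes. Per the submitters' processing notes, scans were read with Agilent Feature Extraction 11, and first-strand priming used oligo-dT or a mix with random primers, per the labels' protocols, without saying which arrays had which. Every deposited intensity column holds the same sorted values, so the authors had quantile-normalized it. The method of background correction was not given in these sources, and precision is limited by the number of arrays. The log2 of the deposited intensity was taken with no offset. Of the probes, 30010 carried 1 gene symbol and 29438 none.

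Each of 26159 genes was read on the probe with the highest mean, and the lowest 30% by mean over all arrays were left out. limma 3.58.1 in R 4.3.3 was fitted to all 4 groups and all genes kept, with Benjamini-Hochberg adjustment and a threshold of 0.05, after tests on simulated data. The 3 array sets came from clustering chemosensory receptor genes, cut at 3 groups by choice, and are groups found in the data, not labelled batches. The labels' replicate numbers only name mice. Of 30 same-numbered pairs, 10 deviated together with a correlation above 0.1 (range -0.85 to 0.86). The array sets were not taken out of these correlations, so they cannot show whether same-numbered mice were paired. Nothing in the labels ties mice to litters or cages.

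The members, the related lists and the array sets were chosen with earlier results of these data known. Values on every array are given for members called in a diet comparison both without and with the set block (at most 8, by rank of p), for the 2 that fell most, and for Ddx21, Ncl, Npm1 and Fbl. Ddx18 was added after its values were seen. From each related list at most 3 called genes with the largest change per diet comparison could be named, and Myc, Mki67 and Ins2 always. Alternatives were an offset of 16, no filter, the mean of each gene's probes, each array centred on its median, trend and robust moderation, and array weights. Further alternatives were the replicate block, the set block, each set alone, a fit of the compared groups alone, and each array left out.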

Additional observations from a re-analysis of the deposited data

Results flagged for a closer look

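In each group the lowest and the highest array of each member were compared with the other 4 (Dixon's criterion, critical value 0.71 for 5 values). Of 140 member and group pairs, 14 stood apart, where chance gives about 1 in 20, and the members share arrays. Young CRD replicate 2, the array of its group in set A, accounted for 8 of them. It was the lowest for Polr1a at 8.29 log2 units (others from 8.68), Polr1c at 9.86 (from 10.63), Ncl at 11.17 (from 12.01), Npm1 at 11.11 (from 12.02), Nop58 at 8.61 (from 9.60), Dkc1 at 8.34 (from 9.03) and Nop10 at 9.77 (from 10.25). It was the highest for Ddx18 at 12.41, where the others reached at most 10.79. Aged CRD replicate 4 was the lowest for Polr1a at 7.43 (others from 8.13), Ddx51 at 5.89 (from 6.41) and Nop14 at 5.88 (from 6.69). Aged CRD replicate 3, of set C, was the highest for Nop58 at 9.07 (others at most 8.60) and the lowest for Gar1 at 5.88 (others from 6.29). Aged HFD replicate 5, of set B, was the highest for Rcl1 at 7.59 (others at most 7.02).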

How the results depend on the processing

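At 18 weeks 17 members passed after CRD. The count was 7 with the array set as a block, 0 in set A alone, 4 in set B alone and 8 with the compared groups alone, and 8 to 23 when 1 array was left out. An offset of 16, no filter, centring, trend and robust moderation, array weights and the replicate block kept it within 1.5 times. At 39 weeks 3 passed, with 6 under the set block, 0 in set A alone, 1 with the replicate block, 10 with array weights and 0 to 3 when 1 array was left out. Between the ages on HFD 1 passed, with 2 under the set block, 4 with array weights, 0 to 3 when 1 array was left out, and 0 with no filter, set A alone, the replicate block or the compared groups alone. After CRD 0 passed between the ages, with 29 under array weights, 13 with the compared groups alone and 0 to 9 when 1 array was left out. For the difference between the diet effects 0 passed, with 18 under array weights and 0 to 12 when 1 array was left out. With the set block and 1 array left out, a repeat chosen after the data were seen, the count was 0 to 12 at 18 weeks, 2 to 8 at 39 weeks and 0 to 4 between the ages on HFD. The replicate block gave 16 members at 18 weeks, and no label says that the numbers pair mice. Across 21 member results that passed and their 647 alternatives, 514 kept direction and call, 132 kept direction and missed the threshold, and 1 changed sign: Nop2 at 18 weeks in set B alone, at -0.0941. Most alternatives share nearly all arrays with the main fit, and some leave out an array of a group not compared. The tally is therefore not a set of independent checks. The cause of these moves was not tested, except that set and group subsets hold fewer arrays. Brightness limits dim members such as Polr1b, near the filter limit of 4.83 log2 units.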
